A study of Mus musculus with 6 samples.

Results

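The genes of the tricarboxylic acid (TCA) cycle and of the reactions that feed pyruvate, glutamate and ketone bodies into it were followed in RNA from mouse synaptoneurosomes. They are 35 genes, chosen by name from the 21958 protein-coding genes of the count table, and all 35 were among the 12255 genes expressed highly enough to be tested. Synaptoneurosomes are a brain fraction, prepared by filtration and centrifugation, in which pinched-off pre- and postsynaptic terminals are enriched. Here they came from the hippocampus and neighbouring cortex of FVB mice aged 6 to 8 weeks, and material of several mice was pooled for each preparation. In the group called polyribosomes (n = 3), synaptoneurosomes were exposed at 37°C to NMDA (50 µM) with glutamate (10 µM) for 30 s, the NMDA receptor antagonist APV (120 µM) was then added, and after an incubation of 20 min the light and heavy polyribosomal fractions of a sucrose gradient were collected and pooled. In the group called total RNA (n = 3), RNA was taken from unstimulated synaptoneurosomes without fractionation. Per the paper's methods, unstimulated controls stayed on ice with cycloheximide, a protein synthesis inhibitor, and were not incubated at 37°C. Stimulation, fraction and this handling (temperature, incubation and cycloheximide) therefore changed together, and their effects cannot be told apart. A positive log2 fold change means a higher level on polyribosomes of stimulated synaptoneurosomes than in total RNA of unstimulated ones.

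The TCA cycle runs in the mitochondrial matrix. It takes up acetyl-CoA, mostly made from pyruvate by the pyruvate dehydrogenase complex, oxidises it to carbon dioxide and passes the electrons to the respiratory chain. In brain the cycle is also tied to neurotransmission, since its intermediate 2-oxoglutarate is exchanged with glutamate by glutamate dehydrogenase and by the aspartate aminotransferases, and since pyruvate carboxylase, an enzyme known mainly from astrocytes, replaces intermediates drawn off for glutamate and glutamine. All of the enzymes studied here are encoded in the nucleus and translated on cytosolic ribosomes, and all but Idh1, Mdh1 and Got1 act in mitochondria.

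The sequences around the start codon are shown for 10 of these mRNAs, which include 3 of the 6 pairs of related genes compared below. Each is written 5′ to 3′ as mRNA-sense DNA of the Gencode vM21 transcript (GRCm38), with the start codon in capitals, the last 10 bases of the 5′ UTR before it and the next 7 coding bases after it.
Idh2: cgtgctcgggATGgccggct
Idh1: tgaagtaaaaATGtccagaa
Suclg2: cctggttaagATGgcgtccc
Sucla2: ggactcagaaATGgcggcgt
Mdh2: cgccctagccATGctgtccg
Mdh1: gtttgcaataATGtctgaac
Pcx: aacactaatgATGctgaagt
Sdhc: ggaactcaagATGgctgcgt
Glud1: cgccgccgccATGtaccgcc
Cs: ttcgcccgccATGgctctac
The start codon of Idh2 lies in exon 1 on the minus strand at chr7:80115274-80115276, that of Suclg2 in exon 1 on the minus strand at chr6:95718773-95718775, and that of Pcx in exon 3 on the plus strand at chr19:4601600-4601602. A purine 3 bases before the start codon together with a G directly after it, the bases usual in a favourable initiation context, was found in 17 of the 34 members whose 5′ UTR was long enough to be read (50.0%). Among all tested genes it was found in 5457 of 11939 (45.7%). In the pairs shown, Idh2 has both bases and Idh1 only the purine, Suclg2 and Sucla2 both have both, and neither Mdh2 nor Mdh1 has the G. Whether these bases go with the fold changes was not tested.

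The 6 libraries held between 1044955 and 7361580 counts on protein-coding genes, and the 35 genes together took between 3702 counts (total RNA replicate 3) and 31267 counts (polyribosome replicate 1). The lowest single count was 13, for Pdk3 in total RNA replicate 3, the shallowest library. Replicates of a group differed by more than sampling noise. Same-numbered libraries of the groups deviated together from their group means, so a fit with the replicate number as a block (here the blocked fit) is given beside the unblocked one. The edgeR p-values rest on the spread between these preparations, estimated in part jointly over genes. They therefore do not measure the spread of a single gene alone. Sdhc, for example, differed by 0.77, 0.31 and 1.02 within the preparations and Pcx by 0.88, 0.64 and 0.83. Their SE in the blocked fit was nevertheless alike, 0.132 and 0.126.

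The 35 genes together took a larger share of the counts in every polyribosome library than in any total RNA library. Of all counts in a library, they took 0.425%, 0.399% and 0.505% in polyribosome replicates 1 to 3 and 0.381%, 0.350% and 0.354% in total RNA replicates 1 to 3. The groups did not overlap, with means of 0.443% ± 0.0552 (SD, n = 3) and 0.362% ± 0.0168, and the two-sided exact permutation test gave p = 0.1, the smallest value that 3 against 3 libraries allow. The difference of 0.0810 percentage points ranged from 0.050 without polyribosome replicate 3 to 0.103 without polyribosome replicate 2. Positive log2 fold changes were found for 32 of the 35 genes, against 6135 of 12255 genes tested. The median log2 fold change was 0.32, beside 0.00 over all genes tested. Within the same-numbered preparations the members' median was 0.32, 0.25 and 0.64, so the third preparation, whose total RNA library is the shallowest, gave the largest value. The sign was the same in all 3 preparations for 25 genes, 23 higher and 2 lower (Pdk1 and Pdk3), while 3706 and 3750 of all genes tested were higher and lower in all 3.

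The number of single genes past the threshold, an adjusted p of 0.01 in edgeR's quasi-likelihood test, depended on the block. Without it, 1 member (Idh2) was higher and 0 were lower, where 0.71% of all genes tested were higher and 2.36% lower. Unadjusted p-values under 0.05 were found for 16 members in the higher direction and for 1 in the lower. Of all 12255 genes tested, 1888 and 2092 had such values. DESeq2 called 3 members higher (Idh2, Suclg2 and Pcx), and over all genes 268 higher and 402 lower. With each of the 6 libraries left out in turn, edgeR called 0 members each time. In the blocked fit 14 members were higher and 1 lower, where 11.8% of all genes were higher and 13.2% lower. The levels of the 3 polyribosome libraries all lay above those of the 3 total RNA libraries for 22 members, against 17.4% of all genes, and all lay below for 0 members, against 18.9% of all genes. With libraries scaled by total counts only, the median of all genes moved to -0.11. Under this scaling 29 members stayed positive, their median was 0.20, and 13 did not overlap. The shares of 17.4% and 18.9% belong to the main scaling and give no background for these 13. With total counts only, the split of all genes called changed from 87 higher and 289 lower to 42 higher and 366 lower.

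**Figure D1:**
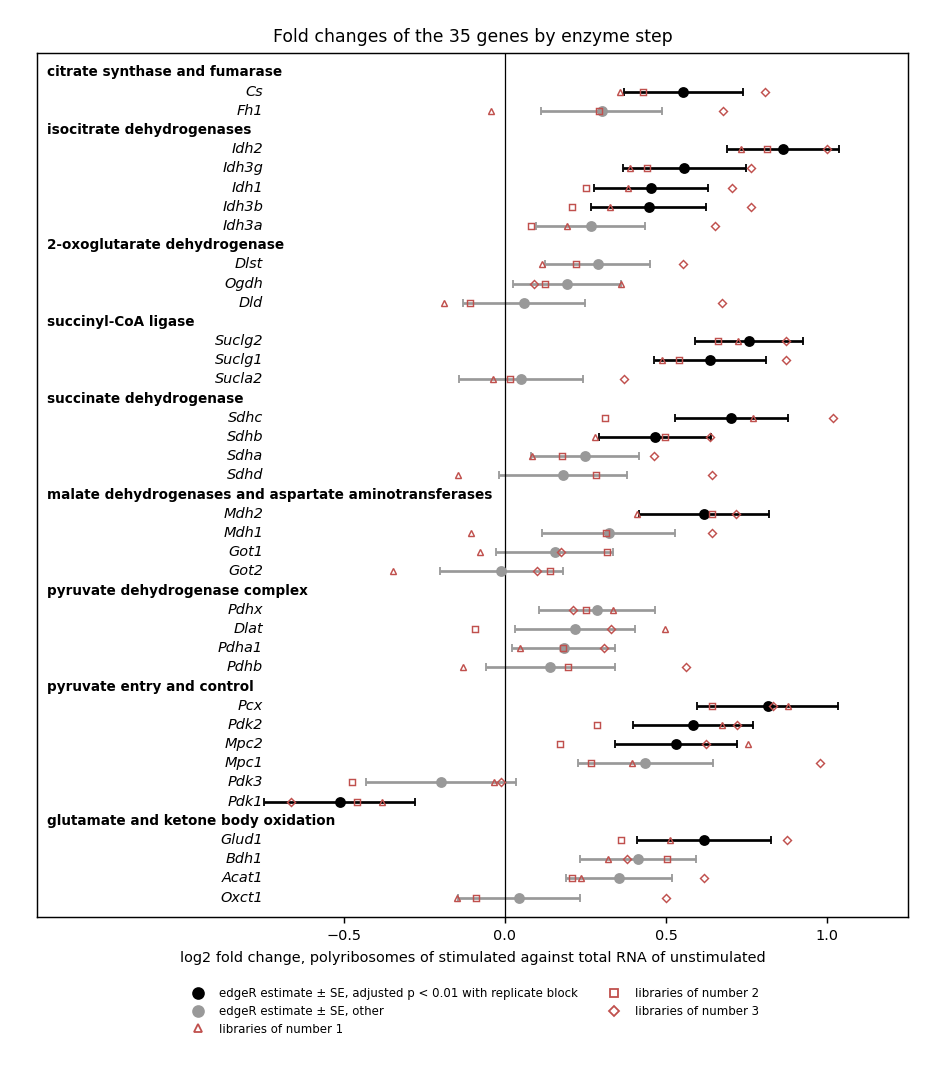
Log2 fold change of each of the 35 genes (x axis, polyribosomes of stimulated against total RNA of unstimulated synaptoneurosomes), ordered by enzyme step. Filled circles with bars are edgeR estimates with their SE, black where the blocked fit gave an adjusted p under 0.01, and open symbols are the differences within each of the 3 same-numbered preparations. Most estimates lie between 0 and 0.86, Pdk1 lies at -0.51, and the diamonds of preparation 3 lie furthest right for many genes.

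Citrate synthase (Cs) condenses acetyl-CoA with oxaloacetate and opens the cycle. Its level, in TMM-normalised CPM (counts scaled to the library's size), was 298, 299 and 431 on polyribosomes and 233, 222 and 246 in total RNA. The 3 polyribosome values all lay above the total RNA values, with a log2 fold change of 0.55 (SE 0.18, adjusted p = 0.0547, and 0.000471 in the blocked fit). The unblocked estimate was 0.35 without polyribosome replicate 3. Fumarase (Fh1), which hydrates fumarate to malate, had 55.6 ± 10.3 CPM on polyribosomes against 44.7 ± 5.46 in total RNA (SD, n = 3). The ranges overlapped, and its log2 fold change of 0.30 passed in neither fit.

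The isocitrate dehydrogenases convert isocitrate to 2-oxoglutarate. The levels of all 5 were higher in each of the 3 preparations and without overlap of the groups, and 4 of them (Idh1, Idh2, Idh3b and Idh3g) passed in the blocked fit. Idh2, the mitochondrial enzyme that makes NADPH, had 109, 102 and 136 CPM on polyribosomes against 65.8, 57.9 and 68.1 in total RNA. Every polyribosome value stood well above every total RNA value. The estimate was the highest of the 35, 0.86 (SE 0.17, adjusted p = 0.0078, and 8.75e-08 in the blocked fit). Leaving out single libraries kept the estimate between 0.73 and 0.95, although it then missed the threshold each time. An offset for transcript GC content and length lowered it to 0.53 (adjusted p = 0.0394), or to 0.52 in the blocked fit (adjusted p = 0.000278). Idh1, the cytosolic enzyme of the same reaction, had 86.7, 69.0 and 98.4 CPM on polyribosomes against 66.5, 57.9 and 60.4 in total RNA. The lowest polyribosome value stood just above the highest of total RNA, and the estimate was 0.45 (adjusted p = 0.0916, blocked 0.00708).

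Idh3a, Idh3b and Idh3g encode the NAD-dependent isocitrate dehydrogenase of the cycle itself. Idh3b had 105, 111 and 150 CPM on polyribosomes against 83.7, 95.8 and 88.2 in total RNA. Idh3g had 78.1, 69.1 and 106 CPM on polyribosomes against 59.6, 50.9 and 62.3 in total RNA. In both, replicate 3 was the highest polyribosome library. Their log2 fold changes of 0.45 and 0.56 had adjusted p-values of 0.0978 and 0.059, and of 0.00808 and 0.00109 in the blocked fit. Leaving out polyribosome replicate 3 lowered the unblocked estimates to 0.27 and 0.37. With the GC and length offset in the blocked fit they fell to 0.18 and 0.25 and no longer passed (adjusted p = 0.268 and 0.105), whereas the catalytic subunit Idh3a, at 0.27 without the offset, rose to 0.40 and passed (adjusted p = 0.00553). Idh3b shares 5 bases of exon with a gene on the opposite strand, Nop56.

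The 2-oxoglutarate dehydrogenase complex decarboxylates 2-oxoglutarate to succinyl-CoA. None of its 3 genes passed in either fit (adjusted p between 0.235 and 0.857 without the block). Ogdh, the decarboxylating subunit, was at 253 ± 16.9 CPM on polyribosomes against 223 ± 27.7 in total RNA (log2 fold change 0.19). Dlst, the succinyl transferase, had a log2 fold change of 0.29 without overlap of the groups, and Dld, the lipoamide dehydrogenase shared with the pyruvate complex, one of 0.06. The 3 preparations disagreed in sign for Dld, with differences of -0.19, -0.11 and 0.67.

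Succinyl-CoA ligase joins a common subunit, Suclg1, to either Suclg2, which gives the GTP-forming enzyme, or Sucla2, which gives the ATP-forming enzyme. The common subunit and the GTP-forming one were higher on polyribosomes, with adjusted p-values of 0.0271 and 0.0115 without the block and of 0.000286 and 1.14e-05 with it. Suclg2 had 57.1, 57.8 and 65.1 CPM on polyribosomes against 34.5, 36.5 and 35.5 in total RNA. The total RNA values lay close together and well below the polyribosome values, and the log2 fold change was 0.76 (SE 0.17). With the GC and length offset alone it was 1.03 (adjusted p = 0.00385). Suclg1 had 57.1, 56.5 and 72.1 CPM on polyribosomes against 40.7, 38.8 and 39.3 in total RNA, again without overlap, and a log2 fold change of 0.64. Sucla2 had 61.0, 55.6 and 48.4 CPM on polyribosomes against 62.6, 54.9 and 37.4 in total RNA. Its ranges overlapped, and the log2 fold change was 0.05 (SE 0.19, adjusted p = 0.889, blocked 0.738), with an interval of 2 SE on each side from -0.34 to 0.43.

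Succinate dehydrogenase is an enzyme of the cycle and also complex II of the respiratory chain. The pair of genes called in the blocked fit were Sdhc, a membrane anchor, and Sdhb, the iron-sulphur subunit. Sdhc had 97.8, 79.8 and 113 CPM on polyribosomes against 57.4, 64.3 and 55.6 in total RNA. All polyribosome values lay above all total RNA values, and the log2 fold change was 0.70 (SE 0.18, adjusted p = 0.0198, blocked 2.15e-05). Sdhb had 77.5, 69.0 and 87.9 CPM on polyribosomes against 63.8, 48.9 and 56.6 in total RNA, and an estimate of 0.46 (adjusted p = 0.08, blocked 0.00438). With the GC and length offset in the blocked fit, Sdhb was at 0.07 and did not pass (adjusted p = 0.717), while Sdhc was at 0.74 and did (adjusted p = 6.31e-08). The flavoprotein Sdha, which oxidises succinate, was at 294 ± 41.4 CPM on polyribosomes against 247 ± 3.97 in total RNA, and the anchor Sdhd at 45.2 ± 3.28 and 38.6 ± 10.8. Their log2 fold changes of 0.25 and 0.18 passed in neither fit. Subunits of this complex thus had estimates from 0.18 to 0.70.

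Mdh2 closes the cycle by oxidising malate to oxaloacetate, and with Mdh1, Got1 and Got2 it forms the malate-aspartate shuttle that carries reducing equivalents of cytosolic NADH into mitochondria. Of these 4 genes Mdh2 alone passed in the blocked fit. It had 158, 165 and 243 CPM on polyribosomes against 119, 106 and 148 in total RNA. The lowest polyribosome value exceeded the highest total RNA value, and the log2 fold change was 0.62 (SE 0.20, adjusted p = 0.0505, blocked 9.55e-05). With the GC and length offset in the blocked fit it was 0.23 and did not pass (adjusted p = 0.142). Cytosolic Mdh1 had 242, 278 and 419 CPM on polyribosomes against 260, 224 and 269 in total RNA, which overlapped, and a log2 fold change of 0.32 (adjusted p = 0.298, blocked 0.0839). Without polyribosome replicate 3 the unblocked estimates were 0.40 for Mdh2 and 0.06 for Mdh1.

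Neither aspartate aminotransferase passed in either fit. Cytosolic Got1 had 61.7, 66.7 and 83.4 CPM on polyribosomes against 65.1, 53.6 and 73.8 in total RNA. Mitochondrial Got2 had 56.0, 66.4 and 86.3 CPM on polyribosomes against 71.3, 60.3 and 80.6 in total RNA. Both overlapped, and the log2 fold changes of 0.15 (SE 0.18) and -0.01 (SE 0.19) had adjusted p-values of 0.597 and 0.978. Intervals of 2 SE on each side ran from -0.21 to 0.52 for Got1 and from -0.39 to 0.37 for Got2. The assignment of Got2 reads is less certain than that of Got1, because a pseudogene, Got2-ps1, is annotated and 379 exon bases overlap Gm45760 on the opposite strand.

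**Figure D2:**
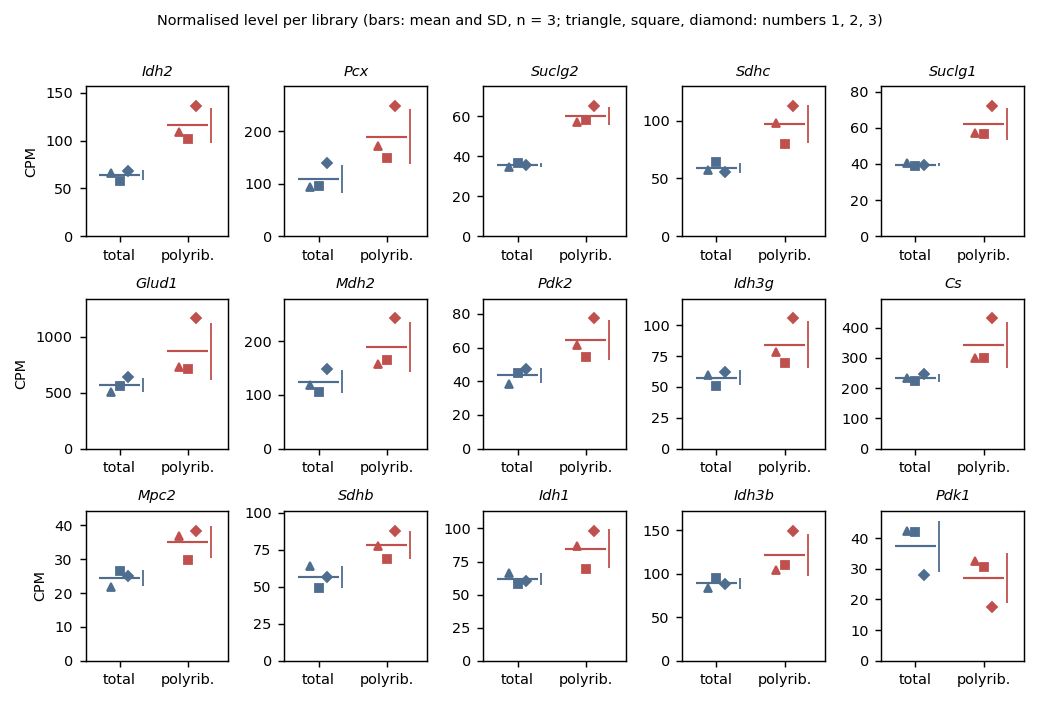
Level in each library (y axis, CPM from 0) of the 15 genes with an adjusted p under 0.01 in the blocked fit, ordered by log2 fold change. Triangles, squares and diamonds are replicates 1, 2 and 3, horizontal bars the means and vertical bars the SD (n = 3). In the 14 higher genes no polyribosome value falls to the total RNA values, and in Pdk1 the groups overlap while each polyribosome library lies below its same-numbered total RNA library.

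Pyruvate reaches the matrix through the mitochondrial pyruvate carrier, a complex of Mpc1 and Mpc2. Mpc2 had 36.9, 29.8 and 38.5 CPM on polyribosomes against 21.9, 26.5 and 24.9 in total RNA. Mpc1 had 49.6, 39.9 and 39.7 CPM on polyribosomes against 37.7, 33.2 and 20.1 in total RNA. Both were without overlap, with log2 fold changes of 0.53 and 0.44 and adjusted p-values of 0.0685 and 0.162. In the blocked fit Mpc2 passed (adjusted p = 0.00649) and Mpc1 did not (0.0116), and with the GC and length offset added Mpc1 passed (0.49, adjusted p = 0.00333) and Mpc2 did not (0.19, adjusted p = 0.36). Which subunit was called thus depended on the offset. The unblocked estimate of Mpc1 was 0.28 without total RNA replicate 3. A pseudogene, Mpc1-ps, is annotated, and 187 exon bases of Mpc1 overlap a gene on the opposite strand.

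The pyruvate dehydrogenase complex, which makes acetyl-CoA, showed small estimates and no call in either fit. The log2 fold changes were 0.18 for Pdha1 and 0.14 for Pdhb, the decarboxylating subunits, 0.22 for Dlat, the acetyl transferase, and 0.29 for Pdhx, which binds Dld to the core. Adjusted p-values lay between 0.288 and 0.668. Pdhx had 29.8, 27.1 and 31.1 CPM on polyribosomes against 23.6, 22.8 and 26.9 in total RNA. Dlat had 65.9, 53.0 and 49.4 CPM on polyribosomes against 46.7, 56.6 and 39.3 in total RNA. The groups of Pdhx just separated and those of Dlat overlapped. Both passed in the blocked fit with the GC and length offset, at 0.50 and 0.43 (adjusted p = 0.00642 and 0.00516). Of the exon bases of Pdha1, 603 overlap Map3k15 on the opposite strand.

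The kinases that phosphorylate and inhibit the pyruvate dehydrogenase complex went in different directions. Pdk2 had 61.4, 54.7 and 77.4 CPM on polyribosomes against 38.5, 44.9 and 47.0 in total RNA, without overlap. It had a log2 fold change of 0.58 (adjusted p = 0.0453, blocked 0.000816). Pdk1, singled out after its values were seen because it alone was called lower, had 32.6, 30.4 and 17.5 CPM on polyribosomes against 42.5, 41.9 and 27.8 in total RNA. The groups overlapped, since the total RNA library of replicate 3 was below polyribosome replicates 1 and 2, but each preparation showed the same direction, with differences of -0.38, -0.46 and -0.66. The log2 fold change was -0.51 (SE 0.24, adjusted p = 0.146, blocked 0.00981), and -0.31 without polyribosome replicate 3 in the unblocked fit. With the GC and length offset in the blocked fit neither kinase passed, with 0.23 for Pdk2 (adjusted p = 0.175) and -0.21 for Pdk1 (adjusted p = 0.276). Pdk3, the least abundant member per library, was at 12.98 ± 3.25 CPM on polyribosomes against 14.5 ± 2.24 in total RNA.

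Pyruvate carboxylase (Pcx), which makes oxaloacetate from pyruvate and so refills the cycle, had the second highest log2 fold change. Its level was 172, 148 and 247 CPM on polyribosomes against 93.4, 94.8 and 139 in total RNA. Replicate 3 was high in both groups, and within the preparations the differences were 0.88, 0.64 and 0.83. The log2 fold change was 0.82 (SE 0.22, adjusted p = 0.0253, blocked 2.45e-07), and it fell to 0.55 in the blocked fit with the GC and length offset (adjusted p = 4.87e-05). Idh2, Pcx, Sdhc and Suclg2 were the 4 members called in the blocked fit, in the same fit with the offset, and in each of the 3 blocked fits that left out both libraries of a replicate number.

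Glutamate dehydrogenase (Glud1) deaminates glutamate to 2-oxoglutarate, and its mRNA was the most abundant of the 35. It had 727, 716 and 1168 CPM on polyribosomes against 510, 557 and 637 in total RNA. The groups did not overlap, and the log2 fold change was 0.62 (SE 0.21, adjusted p = 0.0573, blocked 0.000116). Without polyribosome replicate 3 the unblocked estimate was 0.35. Glud1 alone took 18.6% ± 2.27 of the members' counts on polyribosomes and 16.2% ± 1.76 in total RNA (SD, n = 3, two-sided exact permutation p = 0.3).

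Ketone bodies are oxidised in turn by Bdh1, which makes acetoacetate from 3-hydroxybutyrate, by Oxct1, which activates acetoacetate, and by Acat1, which splits acetoacetyl-CoA. Their log2 fold changes were 0.41, 0.04 and 0.35. None passed in the fits without the offset (adjusted p of 0.127, 0.898 and 0.15, blocked 0.0151, 0.742 and 0.0372), and Acat1 passed in the blocked fit with it (0.51, adjusted p = 0.000208). Bdh1 and Acat1 were without overlap of the groups. Oxct1 was at 266 ± 6.25 CPM on polyribosomes against 256 ± 62.8 in total RNA, with a preparation-wise difference of -0.15, -0.09 and 0.50. Of the exon bases of Bdh1 and Oxct1, 533 and 467 overlap genes on the opposite strand.

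Levels of different genes were compared per kilobase of exon. In total RNA they ran from 168 CPM per kb for Glud1, 118 for Mdh1, 85.3 for Sdha, 85.3 for Mdh2 and 79.9 for Cs down to 9.43 for Suclg2, 7.21 for Pdk1, 6.84 for Pdk3 and 6.21 for Pdhx. On polyribosomes the top of the order was Glud1 (257), Mdh1 (148), Mdh2 (130), Cs (117) and Sdha (101). Over the 3 total RNA libraries the range of Mdh2 spans those of Sdha and Cs, and those of Pdk1, Pdk3 and Pdhx overlap, so the order of these neighbours is within their spread. Glud1 stood above all others in every library.

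**Figure D3:**
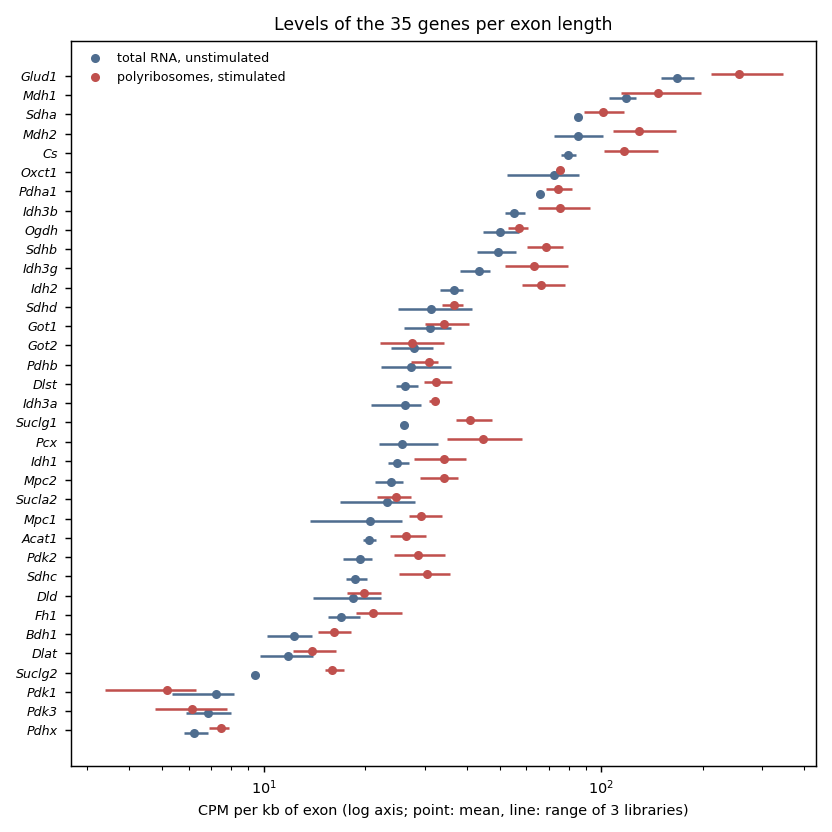
Level of the 35 genes per kilobase of exon (x axis, CPM per kb, log axis), ordered by total RNA. Points are means and lines the range of the 3 libraries of each group, blue for total RNA and red for polyribosomes. Levels span from about 6.21 for Pdhx to 168 for Glud1 in total RNA, and the red points lie to the right for most genes.

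Ratios of related genes within a library do not depend on how libraries are scaled. Of the 6 pairs compared, Idh2 to Idh1 had a log2 ratio of counts of 0.34, 0.56 and 0.47 on polyribosomes and -0.02, 0.00 and 0.17 in total RNA. The polyribosome ratios were all higher, by 0.40 on average (SD of the 3 preparations 0.14, two-sided exact permutation p = 0.1, adjusted over 6 pairs 0.2). Mdh2 to Mdh1 was higher by 0.31 (SD 0.22) and Got2 to Got1 lower, at -0.17 (SD 0.10), each with p = 0.1 and adjusted p = 0.2 in the same exact test, and each without overlap. The unadjusted p of 0.1 is the smallest that 3 against 3 libraries allow. Under the GC and length offset in the blocked fit, however, the order of the enzymes turned, with 0.52 for Idh2 against 0.59 for Idh1 and 0.23 for Mdh2 against 0.32 for Mdh1. Got2 stayed below Got1, at -0.27 against -0.05.

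The ATP-forming subunit of succinyl-CoA ligase showed the largest difference from its partner. The log2 ratio of Sucla2 to Suclg2 was 0.10, -0.06 and -0.43 on polyribosomes and 0.86, 0.59 and 0.07 in total RNA. In each preparation the polyribosome ratio was the lower, by differences of -0.76, -0.64 and -0.50, a mean of -0.64 (SD 0.13). The groups overlapped because both ratios were lowest in replicate 3, and the exact permutation test, which ignores the numbers, gave p = 0.2 (adjusted 0.3). The offset kept this order, with 0.23 for Sucla2 and 0.98 for Suclg2 in the blocked fit. The ratios of Mpc2 to Mpc1 (difference -0.03, SD 0.36) and of Pdhx to Dlat (0.02, SD 0.28) varied more between preparations than between groups (exact permutation p = 1 and 0.9).

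**Figure D4:**
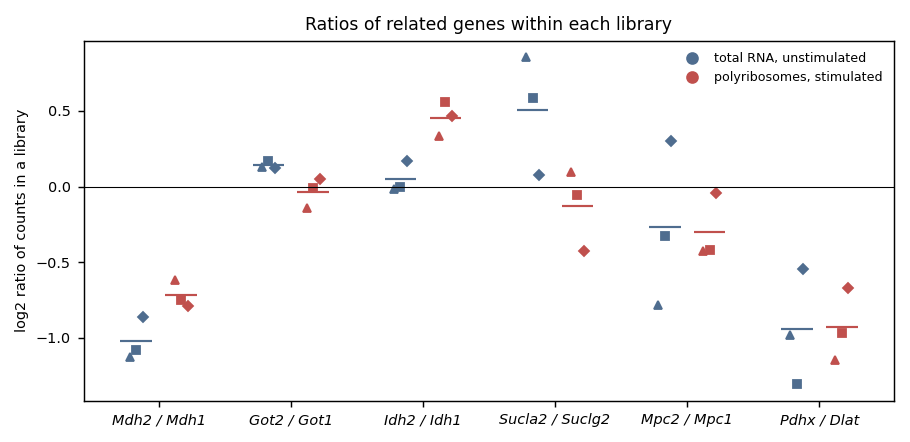
Log2 ratio of the counts of related genes within each library (y axis) for 6 pairs, total RNA in blue and polyribosomes in red. Triangles, squares and diamonds are replicates 1, 2 and 3 and horizontal bars the means. The groups separate for Mdh2 to Mdh1, Got2 to Got1 and Idh2 to Idh1, and for Sucla2 to Suclg2 each polyribosome symbol lies below the same symbol of total RNA.

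The members' transcripts were somewhat shorter and less GC-rich than usual, with a median exon length of 2544 bases (all genes 3610.5) and a median GC content of 48.5% (all genes 50.5%). Across the 35 genes, log2 fold change and GC content had a Spearman correlation of 0.38. Across all genes tested it was 0.535. With exon length the Spearman correlation was -0.116 across the 35 genes and -0.366 across all genes tested. Genes share their libraries and are not independent replicates. In the blocked fit with the GC and length offset, 1100 of the 12255 genes tested were higher and 892 lower. Of the members, 13 were higher and 0 lower. Of the 14 called higher without the offset 8 were among them (Cs, Glud1, Idh1, Idh2, Pcx, Sdhc, Suclg1 and Suclg2), while the calls of Idh3b, Idh3g, Mdh2, Mpc2, Pdk2 and Sdhb ended and 5 others (Acat1, Dlat, Idh3a, Mpc1 and Pdhx) were gained.

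Other enzymes of these pathways were taken as a list of 42 genes, of which 40 were tested. Their median log2 fold change was 0.20, and 28 of 40 were positive, against 6135 of 12255 genes tested. Without the block, where 0.71% of all genes tested were higher and 2.36% lower, 0 were called higher and 1 lower. In the blocked fit, which called 11.8% of all genes tested higher and 13.2% lower, 7 of the list were higher and 3 lower. Among them were, by p, Bckdha (branched-chain amino acid oxidation), at 0.94, Ldhb (lactate dehydrogenase), at 0.81, Gpt (alanine aminotransferase), at 0.95, Pdp1, the phosphatase that reactivates pyruvate dehydrogenase, at -0.85, and Glul (glutamine synthetase, an astrocyte enzyme), at 0.72.

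Markers of other cell types were present in all libraries, and those of astrocytes and microglia were higher on polyribosomes without overlap of their sums, whereas the sums of the oligodendrocyte, endothelial and neuronal lists overlapped. The summed level of 10 astrocyte markers was 38000 to 40199 CPM on polyribosomes and 31076 to 34869 in total RNA. A single astrocyte marker had a mean of 27872 CPM in total RNA, so the total RNA sums were mostly that gene. All 10 were positive on the log2 scale, with a median of 0.48 (7 called in the blocked fit). Taken singly, 8 of the 10 were higher without overlap, against 17.4% of all genes tested. For 8 oligodendrocyte markers the sums were 11293 to 15422 and 8141 to 11570, for 10 microglial markers 1026 to 1195 and 666 to 930, and for 7 endothelial markers 318 to 557 and 344 to 353. All 8 oligodendrocyte markers were positive too (median 0.38, 4 called higher in the blocked fit), as were all 10 microglial ones (median 0.42, 4 called). Of the 7 endothelial markers 5 were positive (median 0.22, 1 called). The 12 neuronal and synaptic markers summed to 12299 to 15302 CPM on polyribosomes and 11477 to 12797 in total RNA, with a median log2 fold change of 0.01. Of these, 6 were positive, and the blocked fit called 4 higher and 2 lower. Over all genes tested this fit called 11.8% higher and 13.2% lower, and 6135 of 12255 genes were positive in the unblocked fit. Although their ranges overlapped, the oligodendrocyte and neuronal sums were higher on polyribosomes in each same-numbered preparation. No marker of any list was at 0 in any library. The part of cell types in the members' values was not tested. In such bulk RNA, less material of a cell type and less RNA per terminal cannot be told apart.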

How the data were processed

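RNA was measured in 6 libraries, 3 per group. Per the paper's methods and the labels, the authors depleted ribosomal RNA, prepared libraries with TruSeq v2 reagents and dUTP, mapped reads to GRCm38 (mm10) with STAR (2.5.2b in the submitters' processing notes), counted them on Gencode vM6 with HTSeq elements, and deposited unnormalized counts per protein-coding gene. The strand setting of the counting is not given in the sources used here, so overlapping genes are uncertain. The table also holds 6 columns of the authors' DESeq2 comparison (mean, log2 fold change, its error, statistic, p and adjusted p), which were not used.

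The counts were fitted with edgeR 4.0.16 (R 4.3.3, TMM, filterByExpr, quasi-likelihood test, group only), with p-values adjusted by Benjamini-Hochberg over 12255 genes at a threshold of 0.01. Depth ranged from 1044955 to 7361580 counts, which limits the precision of low counts. Ratios used log2 of counts plus 0.5 and two-sided exact permutation tests. Exon lengths, GC content and start codons came from Gencode vM21 (98.95% of genes matched). The fit was tested on simulated data. The members and all lists were chosen with earlier results of these data known. All 35 members are named. Values per library are given for those past the threshold in either fit (at most 14, by the blocked p), for 6 fixed pairs and for Pcx, and of the other pathway genes at most 6 past the threshold are named. Of that list, 2 genes are not reported here.

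Replicate numbers were taken to pair the libraries. The labels give the groups the same numbers, and the methods split each preparation into aliquots. The column headers of same-numbered libraries also share a prefix, which differs between the numbers. Deviations of same-numbered libraries from their group means correlated at 0.474, 0.400 and 0.519 over 8577 genes with a mean count of at least 50. For differently numbered libraries these correlations ran from -0.462 to 0.199. Over the 35 members the same-numbered values were 0.445, 0.354 and 0.738. Polyribosome replicate 1, however, correlated at 0.534 with total RNA replicate 2. The members' values thus do not clearly tell the pairing of numbers 1 and 2. Alternatives were DESeq2 1.42.0, its size factors, total counts, other filters, an offset for GC content and length (loess of the log ratio), the replicate block, with and without that offset, thinning to the smallest library and leaving out each library. Blocked fits without each replicate number were added after seeing the data.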

Additional observations from a re-analysis of the deposited data

How the results depend on the processing

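The median log2 fold change of the 35 genes stayed positive under every alternative run, between 0.20 (total counts only) and 0.41 (without total RNA replicate 1). The number called higher, 1 in the unblocked fit, was 3 with DESeq2, 4 with no filter, 2 with at least 10 counts in every library, 6 at an adjusted p under 0.05, and 0 with total counts only, with thinning to the smallest library and with each library left out in turn (0 to 0). It was 14 with the replicate block and 13 with block and offset, and 1 was lower with the block. Without both libraries of number 1, 2 or 3 the blocked fit called 8, 4 and 13 higher, and without number 3 called 1 lower. Members without overlap numbered 22, but 13 with total counts only, for which no share of all genes is given here. Over all genes the unblocked fit called 87 higher and 289 lower, against 268 and 402 with DESeq2, 476 and 566 with no filter and 1441 and 1622 with the block. These counts were 76 and 263 with at least 10 counts, and 799 and 1085 at an adjusted p under 0.05. Total counts only gave 42 and 366, and thinning 39 and 105. Block and offset gave 1100 and 892. The blocked fits without number 1, 2 or 3 gave 627 and 902, 516 and 695, and 1471 and 1601. Leaving out single libraries gave 2 to 59 higher and 32 to 207 lower. The pairs' mean ratio differences were by construction the same with the replicate block (0.40 for Idh2 to Idh1). The ratio of Sucla2 to Suclg2 ranged from -0.85 to -0.46 without single libraries. The blocked fits without number 1, 2 or 3 had 33, 32 and 28 positive members, against 32 in the unblocked fit of all libraries. Signs of single genes in those 3 fits are not listed here. Under the other alternatives, none of the signs that turned belonged to a called gene. They were Dld (-0.053), Sucla2 (-0.058) and Oxct1 (-0.066) with total counts only, Sdhd (-0.12) with thinning, Got1 with the offset (-0.028, blocked -0.051), and Got2 with no filter (0.012), at least 10 counts (0.00198) and thinning (0.14). Without single libraries Dld ranged from -0.066 to 0.22, Sucla2 from -0.10 to 0.21, Got2 from -0.19 to 0.12 and Oxct1 from -0.13 to 0.18. Of 525 values of single genes under alternatives, which leave out the blocked fits without a replicate number, 465 kept direction and side of the threshold. The causes were not tested. Depth limits the least abundant members, such as Pdk3 with 13 counts in the shallowest library.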
